A study of Homo sapiens with 4 samples.

Results

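The ubiquitin-specific proteases (USPs) were followed in MDA-MB-231, a human line established from a triple-negative breast cancer. Members were all genes in the count table whose symbol is USP followed by a number and at most 1 letter, leaving out the interferon-induced USP18, with at least 40 counts summed over the 4 libraries. Of 51 such genes among the 20263 in the table, 46 met the count minimum. The lowest members by summed counts were USP2 with 52, USP51 with 62 and USP6 with 72. The 5 genes under the minimum had 11 counts (USP41), 2 counts (USP50) or 0 counts (USP26 and USP29 among them).

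Exposure lasted 24 h, to RB-1 (2 libraries) or to the solvent DMSO (2 libraries). The series title describes RB-1 as a ribociclib derivative. Ribociclib blocks CDK4 and CDK6, kinases that drive entry into S phase. No dose of RB-1 is stated. Separate cultures are not mentioned for libraries of the same group, so the p-values cover the spread between these libraries, which may be technical. In bulk RNA, fewer cells carrying a transcript and less of it per cell cannot be told apart.

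USPs form the largest family of deubiquitinating enzymes in humans. They are cysteine proteases that cut ubiquitin from proteins, and so can spare a protein from the proteasome, end a signal carried by ubiquitin, or return ubiquitin for reuse. Members differ mainly in what surrounds the catalytic domain, which directs them to chromatin, membranes, the proteasome or signalling complexes. In cancer cells, several are studied for their hold on p53, on DNA repair and on cyclins.

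Library totals lay between 34122874 and 37754168 counts. Mitochondrially encoded genes took 4.25% and 6.46% of counts in the RB-1 libraries, against 8.68% and 21.7% in the DMSO libraries, so DMSO replicate 2 stood apart. Ribosomal protein genes took 6.75% and 4.76% in RB-1 and 3.45% and 2.61% in DMSO. The part of these shares in the results was not tested. The 6 genes expected to be high in the line (VIM, CD44, AXL, CAV1, EGFR and ZEB1) summed to 8590 and 7950 CPM in RB-1 and 7310 and 8380 CPM in DMSO. ZEB1 and CAV1 were themselves lower in RB-1. The 6 genes expected to be low (ESR1, PGR, ERBB2, CDH1, EPCAM and GATA3) summed to 77.0 and 74.3 CPM in RB-1 and 98.5 and 99.0 CPM in DMSO. ESR1 and CDH1 stayed under the count filter. PGR was at or below 1.77 CPM and was lower in RB-1 (edgeR adjusted p = 0.0176). ERBB2, with 60.8 and 57.3 CPM in RB-1 and 77.2 and 65.6 CPM in DMSO, and EPCAM, with 13.5 and 13.1 CPM in RB-1 and 9.46 and 9.55 CPM in DMSO, were detected and did not pass. GATA3 had 2.25 and 3.18 CPM in RB-1 and 9.69 and 21.9 CPM in DMSO and was lower (edgeR adjusted p = 0.00329). The 4 immune markers summed to 0.981 and 0.16 CPM in RB-1 and 1.15 and 0.916 CPM in DMSO, with CD3E and MS4A1 at 0 counts. PTPRC, with only 0 to 22 counts per library, was lower in RB-1 (edgeR adjusted p = 0.0469). The 3 fibroblast markers summed to 5.8 and 6.01 CPM in RB-1 and 10.3 and 9.89 CPM in DMSO, with DCN at 0 counts. The 3 endothelial markers summed to 0.981 and 1.68 CPM in RB-1 and 1.46 and 0.885 CPM in DMSO.

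After RB-1, transcripts of 15 of the 46 USP genes fell, none rose and 31 did not pass the test. The threshold was an adjusted p under 0.05 in edgeR's quasi-likelihood test over all 13612 genes tested, where 16.1% were lower and 12.8% higher. The falls were largest for USP34, USP24, USP47, USP16, USP9X and USP8, each 4-fold or more, a size that 4.17% of all genes tested reached in that direction. In descending order of change, the others were USP15, USP53, USP25, USP48, USP1, USP32, USP37, USP10 and USP7. The median log2 fold change over the members was -0.52, beside 0.01 over all genes tested. With a correction for transcript length and GC content the median was -0.06, with 13 members lower and 5 higher. As counted, without this correction, the median was -0.31 when RB-1 replicate 1 was left out and -0.71 when RB-1 replicate 2 was left out. At an unadjusted p under 0.05, 1 member (USP35) was higher, beside 19.8% of all genes tested, and 18 were lower, beside 21.8%. Without DMSO replicate 2, 12 members fell and none rose, where 9.38% of all genes tested were lower and 3.76% higher. DESeq2 called USP35 higher (adjusted p = 0.0284), while limma-voom called no member higher.

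Both RB-1 libraries lay below both DMSO libraries for 24 members, beside 34.3% of all genes tested, and above them for 8 members, beside 35.3%. All 15 members that fell were among the 24. For the remaining 14 members the groups overlapped. The members' normalised expression, in CPM (counts divided by the TMM-scaled library size, per 1e6), summed to 1979 and 2095 in the RB-1 libraries and to 3188 and 2896 in the DMSO libraries. In each of the 15 members that fell, RB-1 replicate 2 was higher than RB-1 replicate 1, by 0.24 to 0.98 on the log2 scale. The fall was thus smaller in replicate 2. Among all 46 members, RB-1 replicate 2 was the higher in 33, so this direction was not confined to members that fell.

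**Figure D1:**
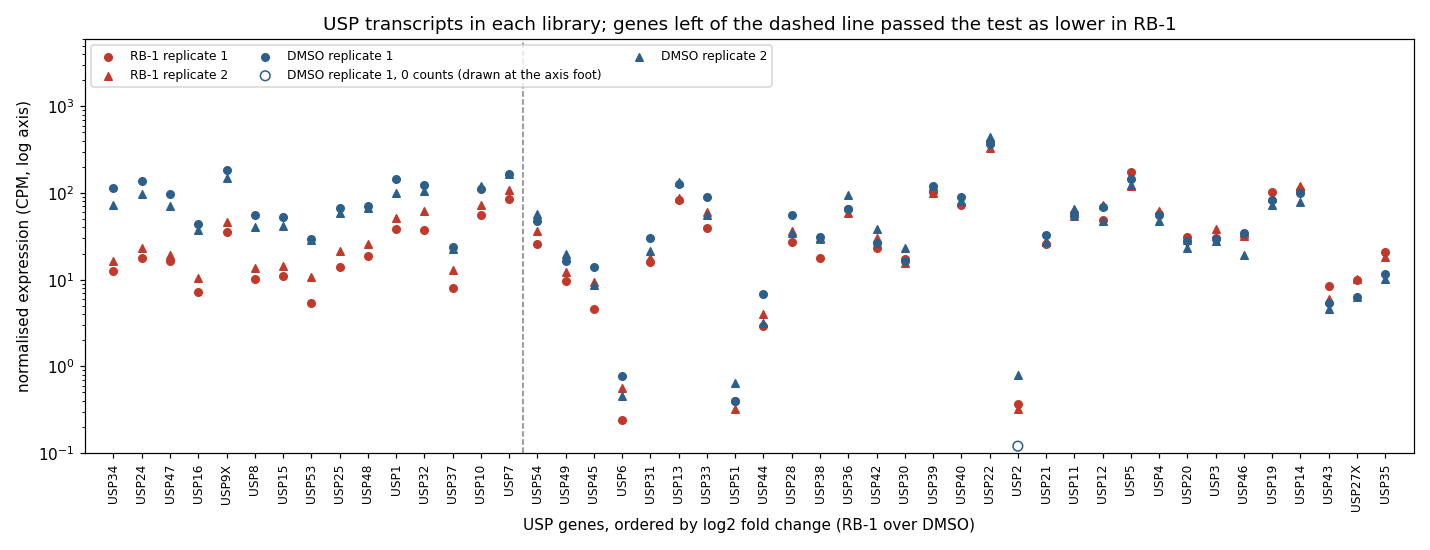
Normalised expression (CPM, log axis) of the 46 USP genes in each of the 4 libraries, ordered by log2 fold change (RB-1 over DMSO). In the 15 genes left of the dashed line, which passed the test, both RB-1 points (red) lie below both DMSO points (blue).

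Genomic context is shown for 6 members: USP34, USP47 and USP16, which fell by more than 4-fold; USP15 and USP4, relatives of which the first fell and the second did not pass; and USP35, which had the highest fold change. The sequences are the 250 bases before the annotated gene start, 5' to 3' on the gene's own strand, from RefSeq on GRCh38.p14. Capitals mark matches on either strand to any of 6 motifs. The SP1 box was searched as GGGCGG, and the ETS box was searched as CCGGAAG. The CCAAT box was searched by its own letters, and the CHR element of cell cycle genes was searched as TTTGAA. The E2F motif was searched in either of its forms, TTTGGCGC and also TTTCGCGC, and the CRE was searched as TGACGTCA. No motif contains another. The windows are chr2:61471088-61471337 (- strand), chr11:11841722-11841971 (+ strand), chr21:29024418-29024667 (+ strand), chr12:62260154-62260403 (+ strand), chr3:49340054-49340303 (- strand) and chr11:78188669-78188918 (+ strand).
USP34 promoter: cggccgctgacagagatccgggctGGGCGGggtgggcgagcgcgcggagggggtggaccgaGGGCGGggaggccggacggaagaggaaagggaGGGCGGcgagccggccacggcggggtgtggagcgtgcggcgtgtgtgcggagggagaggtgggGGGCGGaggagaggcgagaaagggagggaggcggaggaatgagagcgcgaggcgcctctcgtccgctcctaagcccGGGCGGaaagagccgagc
USP47 promoter: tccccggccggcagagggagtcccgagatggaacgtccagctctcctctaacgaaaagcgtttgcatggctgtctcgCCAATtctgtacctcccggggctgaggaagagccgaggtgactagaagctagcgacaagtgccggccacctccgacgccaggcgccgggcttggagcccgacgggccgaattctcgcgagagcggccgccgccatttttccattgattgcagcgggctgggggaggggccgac
USP16 promoter: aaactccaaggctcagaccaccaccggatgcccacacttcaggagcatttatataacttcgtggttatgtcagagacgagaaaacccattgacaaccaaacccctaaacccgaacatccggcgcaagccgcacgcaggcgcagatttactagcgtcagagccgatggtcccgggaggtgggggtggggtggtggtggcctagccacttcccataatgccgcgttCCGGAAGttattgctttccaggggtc
USP15 promoter: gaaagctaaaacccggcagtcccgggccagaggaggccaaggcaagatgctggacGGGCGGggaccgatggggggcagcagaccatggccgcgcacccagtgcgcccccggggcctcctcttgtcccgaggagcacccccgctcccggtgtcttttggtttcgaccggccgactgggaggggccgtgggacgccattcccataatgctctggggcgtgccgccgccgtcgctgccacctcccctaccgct
USP4 promoter: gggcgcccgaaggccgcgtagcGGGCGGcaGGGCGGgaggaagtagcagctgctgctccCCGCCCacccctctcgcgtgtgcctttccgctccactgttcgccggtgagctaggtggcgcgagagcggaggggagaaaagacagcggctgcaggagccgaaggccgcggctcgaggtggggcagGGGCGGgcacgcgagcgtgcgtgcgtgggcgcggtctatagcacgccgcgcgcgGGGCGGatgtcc
USP35 promoter: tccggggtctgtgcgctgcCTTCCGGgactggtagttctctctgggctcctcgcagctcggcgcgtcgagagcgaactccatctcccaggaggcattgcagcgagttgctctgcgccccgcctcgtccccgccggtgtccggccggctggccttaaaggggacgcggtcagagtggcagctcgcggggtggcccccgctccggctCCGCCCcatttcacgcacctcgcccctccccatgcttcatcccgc

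RefSeq promoters were matched for 37 of the 46 members, 11 of them among those that fell. The SP1 box was found in 30 of the 37 windows, beside 66.9% of the 10870 promoters of genes tested that could be matched, and in 8 of the 11 that fell. An ETS box was found in 9 of 37, beside 15.5%, and in 3 of the 11. CCAAT was found in 10 of 37, beside 34.9%, and in 3 of the 11. The CHR element was found in 1 window (USP30), beside 8.44%. No member's window held the E2F letters (1.69% of all) or the CRE (2.81%). These are matches of letters and not sites of binding. Median GC content of the windows was 69.2% in members that fell and 71.2% in those that did not pass, beside 64.8% over all promoters matched.

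Of the 7 members assigned to DNA replication, repair and p53, 5 fell and the other 2 did not pass. Over all genes tested, 16.1% were lower. The role lists were chosen with earlier results of these data known. USP47 (ENSG00000170242), which removes ubiquitin from DNA polymerase beta in base excision repair, had 16.3 and 19.3 CPM in RB-1, against 97.4 and 70.2 CPM in DMSO. The fold change was 4.71-fold lower (log2 -2.24 ± 0.29 SE, edgeR adjusted p = 0.00083). USP48, which trims ubiquitin from histone H2A at the residues that BRCA1 marks, had 18.6 and 25.7 CPM in RB-1 and 71.7 and 66.3 CPM in DMSO (3.11-fold lower, edgeR adjusted p = 0.00325). Both transcripts were well below every DMSO library in each RB-1 library.

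USP1 (ENSG00000162607), which acts with WDR48 on the repair protein FANCD2 and the replication clamp PCNA, had 38.6 and 51.4 CPM in RB-1 and 144 and 101 CPM in DMSO. It was 2.72-fold lower (log2 -1.44 ± 0.28 SE, edgeR adjusted p = 0.0053). USP10, which deubiquitinates p53 in the cytoplasm, had 55.8 and 73.2 CPM in RB-1 and 112 and 122 CPM in DMSO (1.82-fold lower, edgeR adjusted p = 0.0293). USP7, the enzyme that stabilises both MDM2 and p53, had 85.8 and 108 CPM in RB-1 and 166 in both DMSO libraries (1.71-fold lower, edgeR adjusted p = 0.0356). The DMSO libraries differed little for USP7 and USP10, while the falls of both were among the smallest that passed. USP11, which acts in homologous recombination, had 59.2 and 54.5 CPM in RB-1 and 53.7 and 64.8 CPM in DMSO, with overlapping groups. USP28, a partner of 53BP1 and a stabiliser of MYC, also overlapped, with 27.3 and 36.6 CPM in RB-1 and 56.0 and 35.0 CPM in DMSO (log2 -0.51 ± 0.32 SE).

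Of the 5 signalling members, 4 fell, beside 16.1% lower over all genes tested. This list had the lowest median of the role lists (log2 -1.89). Its 4 members that fell have gene spans of 150 to 283 kb. Of all genes tested with spans above 70.4 kb, the family's median, 29.3% were lower. USP34 (ENSG00000115464), which acts on axin in Wnt signalling, had 12.6 and 16.5 CPM in RB-1 and 114 and 73.6 CPM in DMSO. Its change was the largest in the family at 6.45-fold lower (log2 -2.69 ± 0.32 SE, edgeR adjusted p = 0.000534). AHSA2P, on the other strand, overlaps 18.0% of its exon bases. Whether counting used strand is not stated, so reads of such overlapping genes cannot be told apart. Among members that did not pass, such overlaps covered 22.7% of exon bases for USP3, 17.5% for USP2, 16.1% for USP54 and 13.2% for USP22. USP31 shares 23.0% of its exon bases with a gene on its own strand. USP9X (ENSG00000124486), a broad-acting enzyme whose substrates include the survival protein MCL1, had 35.2 and 45.9 CPM in RB-1 and 183 and 147 CPM in DMSO (4.07-fold lower, edgeR adjusted p = 0.000834). USP15, which acts on TGF-beta receptor signalling, had 10.9 and 14.5 CPM in RB-1 and 52.4 and 41.5 CPM in DMSO (3.70-fold lower, edgeR adjusted p = 0.0022). USP25, which acts on TRAF adaptors in innate immune signalling, had 13.9 and 21.5 CPM in RB-1 and 66.9 and 58.1 CPM in DMSO (3.53-fold lower, edgeR adjusted p = 0.00278). The member of this list that did not pass was USP4, with 56.8 and 62.1 CPM in RB-1 and 55.9 and 47.7 CPM in DMSO.

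Among 8 members that act on ubiquitinated histones, beside 16.1% lower over all genes tested, 1 fell and 7 did not pass. It was USP16, an H2A deubiquitinase linked to mitotic progression, with 7.29 and 10.4 CPM in RB-1 and 44.1 and 37.3 CPM in DMSO (4.60-fold lower, log2 -2.20 ± 0.31 SE, edgeR adjusted p = 0.00118). USP22, the deubiquitinase of the SAGA coactivator complex, was the member with the most counts, 387 and 327 CPM in RB-1 and 372 and 440 CPM in DMSO, with overlapping groups (log2 -0.18 ± 0.23 SE). USP27X, a single-exon relative of USP22 on the X chromosome, had 9.94 and 10.2 CPM in RB-1 and 6.28 and 6.35 CPM in DMSO. Those groups did not overlap and the replicates of each were close, but the gene did not pass (log2 0.68 ± 0.31 SE, edgeR adjusted p = 0.124). USP51, another relative, had 12 to 21 counts per library, too few to show a change of moderate size. USP3 and USP21, which remove ubiquitin from H2A, had log2 fold changes of 0.24 ± 0.28 and -0.16 ± 0.28 SE. For USP44, a brake on premature anaphase, and USP49, an H2B deubiquitinase, they were -0.52 ± 0.42 and -0.72 ± 0.31 SE.

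The cell cycle list of 5 had 2 members that fell, beside 16.1% lower over all genes tested. The lists share members: USP8 is also on the membrane and organelle list, and USP44 on the histone list. USP37, which protects cyclin A and helps cells enter S phase, had 8.08 and 13.1 CPM in RB-1 and 24.1 and 22.8 CPM in DMSO (2.21-fold lower, edgeR adjusted p = 0.0246). VIL1, which overlaps 32.8% of its exon bases from the other strand, had at most 2 counts in any library. USP8, an endosomal enzyme that controls the sorting of receptors such as EGFR, had 10.3 and 13.8 CPM in RB-1 and 55.7 and 40.7 CPM in DMSO (4-fold lower, edgeR adjusted p = 0.00189). USP35, which stabilises the mitotic kinase Aurora B, stood at the other end of the family. It had 21.1 and 18.3 CPM in RB-1 and 11.7 and 10.1 CPM in DMSO, without overlap, and missed the threshold (log2 0.86 ± 0.30 SE, edgeR adjusted p = 0.0517). It passed with upper-quartile factors (0.96, adjusted p = 0.0316), library totals alone (1.04, 0.0442) and a stricter count filter (0.85, 0.0498). The first and second of these settings moved the median of all genes to 0.12 and 0.21. USP35 did not pass with RLE factors (0.85, adjusted p = 0.052), a replicate block (0.86, 0.0767) or limma-voom (0.86, 0.0553). With 1 library left out, its log2 fold change ran from 0.75 to 0.96. USP2, known for acting on cyclin D1, had 0 to 26 counts per library and allowed no statement.

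In the membrane and organelle list, USP8 and USP32 were the 2 of 6 that fell, beside 16.1% lower over all genes tested. USP32, a membrane-bound enzyme of endosomal recycling, had 37.1 and 62.6 CPM in RB-1 and 125 and 106 CPM in DMSO (2.31-fold lower, edgeR adjusted p = 0.0140). USP30, which opposes mitophagy at the outer mitochondrial membrane, had overlapping groups at 17.2 and 15.7 CPM in RB-1 and 16.5 and 23.4 CPM in DMSO. USP19, anchored in the endoplasmic reticulum, had 103 and 88.7 CPM in RB-1 and 82.7 and 73.3 CPM in DMSO, without overlap but under the threshold (log2 0.29 ± 0.25 SE). Neither USP20 (log2 0.21 ± 0.28 SE) nor USP33 (-0.55 ± 0.32 SE) passed.

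No member passed among the 3 that serve the proteasome and the recycling of ubiquitin chains. Over all genes tested, 16.1% were lower and 12.8% higher. USP14, bound to the proteasome, had 109 and 120 CPM in RB-1 and 101 and 78.0 CPM in DMSO (log2 0.36 ± 0.25 SE, edgeR adjusted p = 0.299). USP5, which takes apart free ubiquitin chains, had 175 and 122 CPM in RB-1 and 145 and 123 CPM in DMSO. Its relative USP13 had 82.1 and 86.9 CPM in RB-1 and 126 and 133 CPM in DMSO, a separation that missed the threshold (log2 -0.61 ± 0.23 SE, edgeR adjusted p = 0.0741). The 3 members of RNA processing and the nucleolus did not pass either. USP39, a catalytically inactive splicing factor, had 104 and 101 CPM in RB-1 and 120 and 122 CPM in DMSO (log2 -0.24 ± 0.23 SE). USP36, a nucleolar enzyme, was at -0.36 ± 0.27 SE and USP42 at -0.28 ± 0.31 SE.

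The 2 members that fell outside these lists were USP24 and USP53. USP24 (ENSG00000162402), one of the longest USPs, had 17.9 and 23.2 CPM in RB-1 and 138 and 97.8 CPM in DMSO (5.74-fold lower, log2 -2.52 ± 0.30 SE, edgeR adjusted p = 0.000494). USP53, a protein of tight junctions, had 5.38 and 10.6 CPM in RB-1 and 29.6 and 28.5 CPM in DMSO (3.63-fold lower, edgeR adjusted p = 0.00505). Its RB-1 libraries differed by 0.98 on the log2 scale, the widest gap among the members that fell. The remaining members outside the lists did not pass. Of these, USP40 (-0.19 ± 0.24 SE), USP38 (-0.39 ± 0.31), USP31 (-0.61 ± 0.30) and USP54 had both RB-1 libraries below both DMSO libraries, and USP43 (0.52 ± 0.34) had them above. USP45 (-0.67 ± 0.41), USP6 (-0.63 ± 0.63), USP12 and USP46 overlapped.

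The calls divided by how well they held when single libraries were left out. USP34, USP24, USP47, USP16, USP9X, USP8, USP15, USP53, USP25, USP48 and USP1 passed in every such fit. Of these, USP1 came closest to the threshold, without DMSO replicate 1, where its log2 fold change was -1.16. USP7, USP10 and USP37 did not pass without RB-1 replicate 1 (log2 -0.61, -0.67 and -0.83, adjusted p = 0.151, 0.127 and 0.103), DMSO replicate 1 (-0.77, -0.92 and -1.11, adjusted p = 0.136, 0.0974 and 0.116) or DMSO replicate 2 (-0.76, -0.78 and -1.16, adjusted p = 0.166, 0.185 and 0.107). USP32 did not pass without RB-1 replicate 1 (-0.88, adjusted p = 0.0712) or DMSO replicate 1 (-1.08, adjusted p = 0.0763). USP54 passed as lower without RB-1 replicate 2 (-1.03, adjusted p = 0.0380) and with DESeq2 (-0.77, adjusted p = 0.0460), against -0.76 and an adjusted p of 0.0746 as counted.

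Levels per transcript length, in CPM per kb, ordered the family as follows. USP22 was highest in both groups, with 68.4 in RB-1 and 77.8 in DMSO, followed by USP39 (50.5 in RB-1 and 59.5 in DMSO) and USP5 (48.1 in RB-1 and 43.5 in DMSO). The RB-1 libraries of USP5, at 56.8 and 39.5, overlapped those of USP39, at 51.4 and 49.7. Below them the order differed between groups. USP1 stood at place 13 in RB-1 (12.8) and place 5 in DMSO (34.9), USP47 at place 28 in RB-1 (3.93) and place 8 in DMSO (18.5), and USP25 at place 25 in RB-1 (4.46) and place 14 in DMSO (15.7). USP14 stood at place 4 in RB-1 (23.3) and place 9 in DMSO (18.1). USP51, USP2 and USP6 were lowest in both groups, all at or below 0.213 CPM per kb in every library.

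Members that fell differed from the others in gene structure. Lengths and GC content were taken from GENCODE 29, on GRCh38, for the principal transcript. Members that fell had a median GC content of 41.5%, a median of 26 exons and a median gene span of 118 kb. For those that did not pass the medians were 47.1%, 16 exons and 56.7 kb, and over all genes tested they were 49.6%, 9 exons and 32.9 kb. Of the 23 members spanning more than 70.4 kb, the family's median, 13 fell, while 29.3% of all genes tested with so long a span were lower. Of the 23 shorter members 2 fell (USP16 and USP1), beside 11% of all such genes. Of the 23 members with more exons than the family's median, 11 fell, beside 39.2% of such genes, and of the 23 with fewer 4 fell, beside 12%. Of the 24 members with GC content at or below the median 11 fell, beside 28.1%, and of the 22 above it 4 fell, beside 9.5%. Of the 23 members with longer transcripts than the median 9 fell, beside 31.4%, and of the 23 with shorter ones 6 fell, beside 11.1%.

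Across the 46 members the log2 fold change had a Spearman correlation of -0.58 with gene span, 0.54 with GC content, -0.46 with exon number and -0.41 with transcript length. Over the 13596 genes tested with known structure these were -0.34, 0.30, -0.30 and -0.37. The points share the same 4 libraries, and the features are related to each other. The difference between the RB-1 libraries themselves (replicate 2 minus replicate 1) had a correlation of -0.64 with GC content over the members and -0.50 over all genes. With gene span it was 0.47 over the members and 0.40 over all genes. The same difference between the DMSO libraries had correlations of the opposite sign. With GC content they were 0.49 over the members and 0.31 over all genes, and with gene span -0.21 and -0.11.

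**Figure D2:**
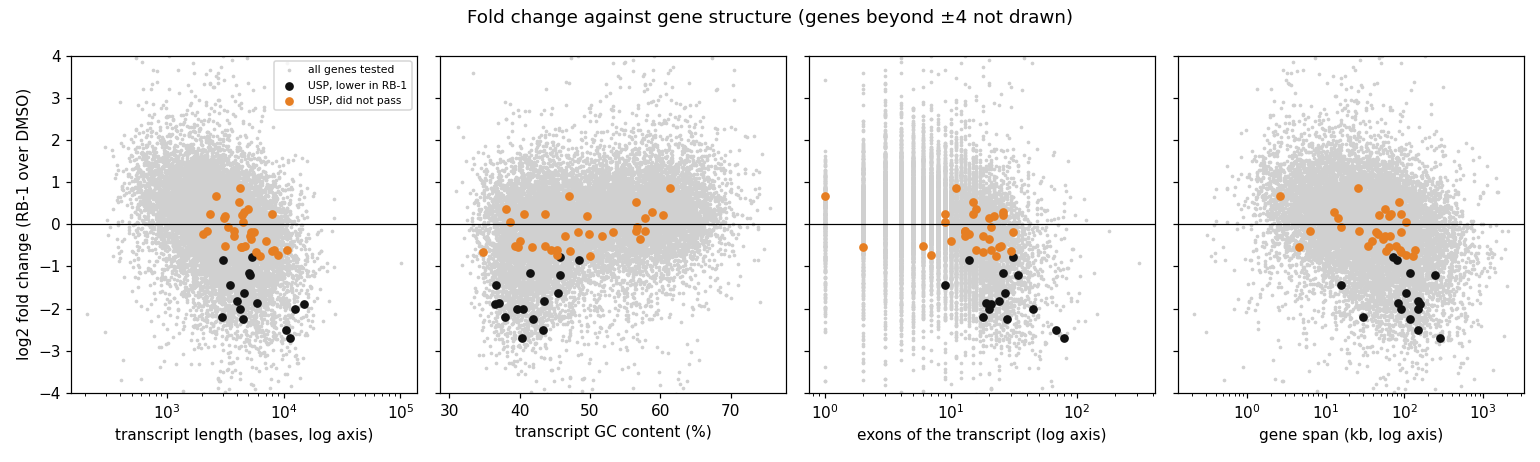
Log2 fold change (RB-1 over DMSO) against transcript length, GC content, exon number and gene span. Grey points are all genes tested, black points the 15 USP genes that fell and orange points the 31 that did not pass. Black points gather at low GC content, many exons and long spans.

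A correction for transcript length and GC content, fitted per library over all genes, moved the family. It removes any length or GC trend between libraries, including one between RB-1 and DMSO, whatever its source. Gene span and exon number were not part of the correction. The median log2 fold change over members became -0.06, and the 13 lower and 5 higher members stood beside 15.3% and 16.3% of all genes tested. USP7 (-0.33, adjusted p = 0.178) and USP37 (-0.53, adjusted p = 0.0991) no longer passed. The falls of USP9X (-0.84), USP15 (-0.70), USP34 (-1.54) and USP24 (-1.53) became smaller, while that of USP16 (-1.82) was then the largest in the family. The 5 that passed as higher were USP46 (1.24, adjusted p = 0.0171), USP14 (1.01, 0.0107), USP35 (0.81, 0.0302), USP27X (0.73, 0.0475) and USP12 (0.64, 0.0381). As counted, USP46 and USP12 had log2 fold changes of 0.25 and 0.06 with overlapping groups. The 13 lower members were all among the 15.

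**Figure D3:**
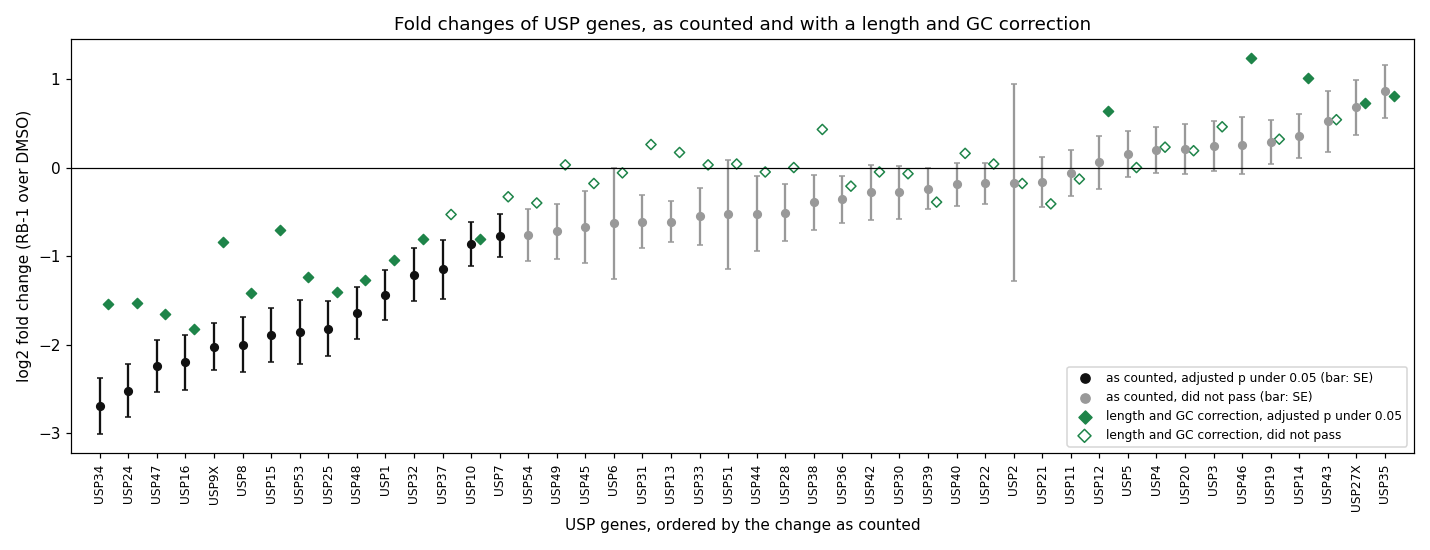
Log2 fold change (RB-1 over DMSO) of each USP gene as counted (circles, bars are SE) and with the length and GC correction (diamonds). Filled black circles and filled diamonds passed at an adjusted p under 0.05. The diamonds of the members that fell lie above their circles, and 5 diamonds at the right pass as higher.

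Close relatives within the family were set side by side as ratios within each library. The differences between genes were not tested. USP4, USP11 and USP15 share one domain architecture. The log2 ratio of USP4 to USP15, in CPM per kb within a library, was 4.64 and 4.35 in RB-1 and 2.35 and 2.46 in DMSO. That of USP11 to USP15 was 4.60 and 4.07 in RB-1 and 2.20 and 2.80 in DMSO. Both ratios were thus higher in RB-1 with no overlap, while USP4 to USP11 was 0.04 and 0.28 in RB-1 and 0.15 and -0.35 in DMSO, with overlap. With the length and GC correction the log2 fold changes of USP4 and USP15 were 0.23 and -0.70, closer than the 0.20 and -1.89 as counted. USP25 to USP28 was -0.74 and -0.53 in RB-1 and 0.49 and 0.96 in DMSO, so USP28 was the more abundant relative in the RB-1 libraries and USP25 in the DMSO libraries. USP16 to USP45 was 1.64 and 1.11 in RB-1 and 2.64 and 3.09 in DMSO. USP35 to USP38 was 0.96 and 0.05 in RB-1 and -0.69 and -0.86 in DMSO. USP53 to USP54 was -2.18 and -1.70 in RB-1 and -0.61 and -0.94 in DMSO. USP12 and USP46, which like USP1 bind WDR48, kept overlapping ratios of 1.41 and 2.01 in RB-1 and 1.82 and 2.11 in DMSO. USP36 to USP42 overlapped likewise. USP6 is a near copy of part of USP32, so the 72 counts of USP6 are uncertain.

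**Figure D4:**
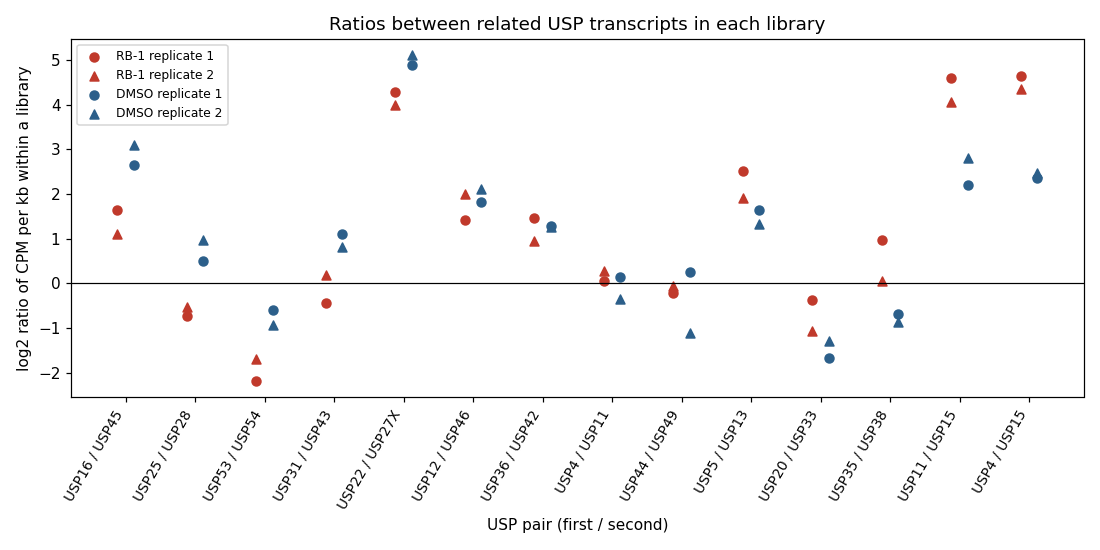
Log2 ratio of CPM per kb between related USP genes within each library, for pairs whose genes each had over 100 counts, ordered by the difference between RB-1 (red) and DMSO (blue). USP16/USP45 and USP25/USP28 were lower in both RB-1 libraries, and USP4/USP15 and USP11/USP15 higher.

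Cofactors and substrates were counted beside the enzymes. Of 10 cofactors of USPs, 1 fell and none rose, beside 16.1% lower and 12.8% higher over all genes tested. It was WDR48, the activating partner of USP1, USP12 and USP46, with 24.4 and 35.0 CPM in RB-1 and 69.7 and 50.8 CPM in DMSO (2.03-fold lower, edgeR adjusted p = 0.0299). WDR20, a further partner of USP12 and USP46, had 20.7 and 34.2 CPM in RB-1 and 16.8 and 17.1 CPM in DMSO (edgeR adjusted p = 0.124). Of 10 genes for known substrates and partners, 4 fell and 6 did not pass, beside the same 16.1% lower over all genes tested. The 4 were FANCI, FANCD2, TP53BP1 and CCNA2. FANCI had 25.9 and 26.7 CPM in RB-1 and 94.5 and 63.3 CPM in DMSO (edgeR adjusted p = 0.00412). FANCD2, deubiquitinated with it by USP1, had 21.5 and 29.6 CPM in RB-1 and 63.3 and 49.0 CPM in DMSO (edgeR adjusted p = 0.0176). CCNA2, the cyclin A that USP37 protects, was 1.67-fold lower. TP53BP1, the partner of USP28, was 2.67-fold lower, and TUBGCP4 overlaps 28.7% of its exon bases from the other strand. PCNA did not pass (log2 0.31 ± 0.24 SE).

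RPS27A, which encodes ubiquitin fused to a ribosomal protein, rose. It had 622 and 293 CPM in RB-1 and 158 and 121 CPM in DMSO (3.28-fold higher, edgeR adjusted p = 0.00848). The polyubiquitin gene UBB did not pass, with a log2 fold change of 0.18 ± 0.23 SE. Genes on the other strand overlap 28.4% of its exon bases.

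Deubiquitinases of other families were counted in the same way. Among 33 tested there were 6 that rose, 3 that fell and 24 without a call, beside 12.8% higher and 16.1% lower over all genes tested, with a median log2 fold change of -0.26. Those that rose were JOSD2 (2.16 ± 0.35 SE), OTUD1 (1.42), MPND (1.29), MINDY3 (0.98), OTUB2 (0.97) and OTUD7B (0.79), an opponent of non-canonical NF-kB signalling. Those that fell were OTUD6B (-2.15 ± 0.41 SE), BRCC3 (-1.67), a K63-specific enzyme of the BRCA1-A complex, and OTUD4 (-1.21). The counts of MPND and OTUB2 are uncertain because 23.2% and 15.1% of their exon bases are shared with genes on the other strand. Without DMSO replicate 1 there were 2 higher and 2 lower, without DMSO replicate 2 there were 2 and 2, without RB-1 replicate 1 there were 4 and 1, and without RB-1 replicate 2 there were 4 and 5. The length and GC correction gave 7 higher and 1 lower. A difference from the USPs was not tested.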

How the data were processed

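RNA-seq libraries from MDA-MB-231 cells, 2 per group, were prepared with an mRNA library kit, per the labels' protocols. The authors deposited counts per gene, 1 column per library, per the file headers. The values are whole numbers and were taken as not normalised. The headers do not say whether samples were pooled. The aligner, the counter and the strand setting are not named by any label or header. Submitters' processing notes list GRCm38 and mm10, which are mouse builds, while the gene IDs are human, so no coordinates come from the count table. A table of gene names gave symbols for 20148 of 20263 IDs.

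In R 4.3.3, edgeR 4.0.16 (filterByExpr) left 13612 genes, scaled by TMM. The contrast of RB-1 over DMSO was tested with edgeR's quasi-likelihood method (robust glmQLFit). Tests were two-sided, and p-values were adjusted by Benjamini-Hochberg over all genes tested. An SE is the size of the log2 fold change divided by the square root of F. Each gene has 2 residual degrees of freedom. All 46 members passed the filter. Libraries of a group differed by more than counting noise (chi-square per degree of freedom 128 for RB-1 and 256.6 for DMSO), so none looked like 1 library deposited again; this does not show separate cultures.

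Members, lists and the rule for named genes were chosen with earlier results of these data known. The rule names every member that passed, a panel of 10 and 14 groups of relatives; the promoters shown were chosen after the values were seen. The length and GC correction uses natural splines (5 degrees of freedom) per library. Alternatives were RLE, upper-quartile and no scaling factors, other filters, DESeq2 1.42.0, limma-voom (limma 3.58.1), non-robust and legacy fits, a replicate block, and leaving out each library. Some genes of the lists outside the family are not reported here.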

Additional observations from a re-analysis of the deposited data

How the results depend on the processing

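The number of USP genes that fell was between 11 and 16 with 1 library left out and between 11 and 16 under the other settings, with 11 genes passing in every one of them: USP34, USP24, USP47, USP16, USP9X, USP8, USP15, USP53, USP25, USP48 and USP1. With the replicate number as a block, 15 fell, none rose and the median was -0.50; the block changed no call among the USP genes. The labels do not say that a number marks a shared culture or day, and same-numbered libraries did not deviate together (correlation -0.096). The number that rose, 0 as counted, was 1 with upper-quartile factors, library totals alone, the stricter count filter or DESeq2 (USP35 each time), 5 with the length and GC correction and 4 with that correction and the replicate block. The median log2 fold change was -0.34 with library totals alone, -0.06 with the length and GC correction and -0.04 with the correction and the block, and it ran from -0.71 to -0.31 with 1 library left out. Library totals alone moved the median of all genes to 0.21. Upper-quartile factors moved it to 0.12, so folds there are to be read against those shifts. For other deubiquitinases, the number lower was 1 with the length and GC correction, with or without the block, and 1 to 5 with 1 library left out. The number higher was 2 to 4 with 1 library left out, 2 at an adjusted p under 0.01 and 3 with a 2-fold minimum. The causes were not tested. The edgeR legacy fit, added after seeing the data, gave 15 lower and none higher.

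Over all genes, the calls numbered 1737 higher and 2189 lower. Leaving out RB-1 replicate 2 gave 1955 higher and 2443 lower, leaving out RB-1 replicate 1 gave 655 higher and 1065 lower, leaving out DMSO replicate 1 gave 768 higher and 1361 lower, and leaving out DMSO replicate 2 gave 522 higher and 1302 lower. Scaling moved their balance, with 2171 higher and 1830 lower under upper-quartile factors and 2059 and 1400 under library totals alone. Precision is limited by 2 libraries per group. At 52 to 72 summed counts, USP2, USP51 and USP6 can show only large changes.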
